A study of Arabidopsis thaliana with 12 samples.

Results

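The basal transcriptome of the arginyl transferase double mutant was compared with that of the wild type in 6 of the 12 libraries of the series. These were the 3 libraries of mock-treated a1a2 seedlings and the 3 libraries of mock-treated Col-0 seedlings, chosen by their labels alone. The mutant, ate1-2 ate2-1 (a1a2), carries mutant alleles of both arginyl transferase genes, and Col-0 is its wild-type accession. Seedlings of both genotypes were grown on agar in continuous light, moved at an age of 9 days in groups of 50 to 2 wells of liquid medium with sucrose, and given water as the mock treatment 24 h later. They were 10 days old when they were harvested whole, 1 h after the addition of water, and poly(A) RNA was sequenced. The other 6 libraries came from seedlings of the same 2 genotypes given 1 µM flg22 for 1 h. They entered the model as further measures of the spread between replicates and of the differences between replicate numbers, which all 12 libraries share. They also served for a comparison at the end. The study calls the replicates biological. Each pools whole seedlings, so that fewer cells of a type and less RNA per cell cannot be told apart in any result given here, and the double mutant is a single combination of alleles with no rescue line in these libraries.

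The Arg/N-degron pathway degrades proteins according to their N-terminal residue. Arginyl transferases attach arginine to certain N-termini, and the ubiquitin ligase PRT6 then recognises the arginine and marks the protein for the proteasome. A Cys that follows the initiator Met becomes such an N-terminus only after it has been oxidised by plant cysteine oxidases (PCOs), which need oxygen, so proteins of this kind are short-lived in air and stable when oxygen is scarce. The best known of them in plants are the group VII ethylene response factors (ERF-VIIs), transcription factors that turn on the genes of fermentation and of other responses to hypoxia.

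Of 20439 genes tested, 196 (0.959%) were differentially expressed genes (DEGs), with an adjusted p under 0.05 in edgeR's quasi-likelihood test and a difference of more than 1.5-fold, in a model that held 1 mean per group and the replicate number. In a1a2, 91 of them were higher (0.445% of the genes tested) and 105 were lower (0.514%). The higher genes differed more: their median log2 fold change (log2FC) was 1.67, and 38 exceeded 4-fold, whereas the lower genes had a median of −1.08 and only 14 exceeded 4-fold. In 75 of the 91 higher DEGs, all 3 a1a2 libraries lay above all 3 Col-0 libraries, as did 4.44% of all genes tested. Of the 105 lower DEGs, 54 had no overlap between the groups, as did 5.34% of all genes tested. Without the replicate number in the model, 34 genes were called, 28 higher (0.137%) and 6 lower (0.0294%), and all 34 were among the 196. In every one of the 9 fits that left out 1 mock library or 1 replicate number, 32 of the higher and 9 of the lower DEGs were called. Most calls for higher genes, and nearly all for lower genes, therefore rested on differences within replicate numbers. All 196 DEGs differed in the same direction in each of the 3 same-number pairs of libraries, as did 16.1% of all genes upwards and 20.2% downwards. The model with the replicate number favours genes of this kind, so the agreement follows from the selection and is no separate evidence.

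The 6 libraries held 21376578 to 22418316 counts each. Along the first principal component of the mock libraries (42.21% of the variance) the 2 genotypes of a replicate number lay together, and the second (25.14%) separated Col-0, at 9.34 to 32.3, from a1a2, at −26.4 to −14.9. Replicate 3 of both genotypes stood apart in clock genes. CCA1, a morning gene of the clock, was at 16.7, 39.8 and 127 CPM (counts scaled to a common library size) in Col-0 replicates 1, 2 and 3 and at 22.3, 43.2 and 145 CPM in a1a2. No gene of the root list (18 tested), the leaf and shoot list (16) or the KNOX and leaf polarity list (6) was a DEG, and their medians (log2FC 0.10, 0.08 and 0.14) lay beside −0.01 over all genes tested. The summed root markers ranged from 206 to 341 CPM in Col-0 and from 263 to 286 CPM in a1a2.

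The mutated genes themselves were low in every a1a2 library. ATE1 (AT5G05700) stood at 22.9, 22.1 and 22.2 CPM in Col-0 replicates 1, 2 and 3 and at 2.72, 2.89 and 2.19 CPM in a1a2. The 2 groups were far apart (log2FC −3.12 ± 0.15, n = 3 against 3, adjusted p = 8.22e-07). Here and below, ± gives a standard error derived from the F-test of the model and not from the 3 against 3 libraries alone. ATE2 (AT3G11240) went from 6.67, 6.73 and 5.86 CPM to 0.513, 0.263 and 0.481 CPM (log2FC −3.91 ± 0.25, adjusted p = 7.24e-06). A low number of reads therefore remained on both genes in a1a2. None of the 35 tested genes that lie within 25 genes on either side of ATE1 was a DEG, and none of the 35 around ATE2. Of the 12 genes of the N-degron list, 4 were DEGs, ATE1 and ATE2 among them, and the list had a median log2FC of 0.03. PRT6 and BIG, which encode ubiquitin ligases of the pathway, gave log2FC 0.09 ± 0.08 and 0.09 ± 0.09 and did not pass (adjusted p = 0.756 and 0.798).

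The other 2 DEGs of that list encode the enzymes that open the Cys branch, and both were high in a1a2. PCO1 (AT5G15120) stood at 1.9, 1.5 and 1.06 CPM in Col-0 against 71, 52.9 and 42.2 CPM in a1a2, a 36.9-fold difference (log2FC 5.21 ± 0.13, adjusted p = 6.57e-10, the smallest of all genes tested). PCO2 (AT5G39890) stood at 2.39, 2.52 and 1.83 CPM and at 42, 28.7 and 21.6 CPM, or 13.4-fold higher (log2FC 3.75 ± 0.17, adjusted p = 3.9e-07). For both genes the lowest a1a2 library lay many times above the highest Col-0 library. Both genes are also among those that rise within 2 h of hypoxia in Arabidopsis seedlings.

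The listed substrates of the Cys branch all have a RefSeq coding sequence with a codon for Cys in second place. For a gene with several coding sequences, a sequence with that codon was shown wherever it existed. RefSeq coding sequences (build TAIR10.1) of the 7 listed genes begin as follows, 5′ to 3′, with that codon in capitals.
RAP2.2 (chr3:4738971-4739000, minus strand): atgTGTggaggagctataatctccgatttc
RAP2.3, named EBP in the annotation (chr3:5705784-5705813, plus strand): atgTGTggcggtgctattatttccgattat
RAP2.12 (chr1:20135242-20135271, plus strand): atgTGTggaggagctataatatccgatttc
HRE1, named ERF73 (chr1:27241904-27241933, plus strand): atgTGCggaggagctgtaatttccgattac
HRE2, named ERF71 (chr2:19503461-19503490, minus strand): atgTGTgggggagctatcatttctgatttc
VRN2 (chr4:9476708-9476737, plus strand): atgTGTaggcagaattgtcgcgcgaaatcc
ZPR2 (chr3:22497413-22497442, minus strand): atgTGTctgacaacttcagagccaccattc

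Among these substrates, 1 transcript was a DEG. HRE2 (AT2G47520), an ERF-VII, stood at 0.364, 0.354 and 0.17 CPM in Col-0 against 4.18, 2.23 and 1.88 CPM in a1a2, 9.07-fold higher with no overlap (log2FC 3.18 ± 0.31, adjusted p = 0.000214). HRE1, its closest relative, also lay higher in each a1a2 library, at 8.53, 8.45 and 5.95 CPM against 4.57, 5.36 and 3.7 CPM, but did not pass (log2FC 0.75 ± 0.19, adjusted p = 0.0926). The other 3 ERF-VIIs, RAP2.12, RAP2.2 and RAP2.3, gave log2FC 0.06 ± 0.07, −0.01 ± 0.10 and −0.53 ± 0.13, none of which passed (adjusted p = 0.814, 0.977 and 0.0953). VRN2, a subunit of Polycomb repressive complex 2, and ZPR2, a small leucine zipper protein, gave −0.07 ± 0.07 and 0.83 ± 0.32 (adjusted p = 0.762 and 0.319).

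Genes of fermentation and of carbon supply at low oxygen formed the next group. Of 20 tested, 5 were higher and 1 was lower (median log2FC 0.32), against 0.445% and 0.514% of all genes tested. SUS4 (AT3G43190), a sucrose synthase that feeds sucrose into glycolysis, stood at 2.71, 3.19 and 5.18 CPM in Col-0 against 58.3, 37.9 and 33.5 CPM in a1a2 (11.6-fold, log2FC 3.53 ± 0.30, adjusted p = 0.000203). SUS1, a second sucrose synthase, was 2.43-fold higher (adjusted p = 0.00915). PDC1 (AT4G33070), the pyruvate decarboxylase of ethanol fermentation, stood at 2.59, 1.42 and 2.59 CPM and at 39.5, 18.9 and 13.7 CPM (10.3-fold, log2FC 3.37 ± 0.24, adjusted p = 3.97e-05). ADH1 (AT1G77120), the alcohol dehydrogenase that completes the pathway, stood at 6.71, 5.75 and 3.78 CPM and at 92.3, 39.1 and 20.8 CPM (8.3-fold, log2FC 3.05 ± 0.26, adjusted p = 0.00019). In none of the 4 did a Col-0 library reach an a1a2 library. In a1a2, replicate 1 was the highest library for each of them, and for ADH1 it was more than 4 times replicate 3, and ADH1 and SUS1 were not called without the replicate number in the model (ADH1: adjusted p = 0.143). PDC2, the second pyruvate decarboxylase, stood at 122, 113 and 28 CPM in Col-0 against 159, 104 and 27.3 CPM in a1a2 and did not pass (log2FC 0.09 ± 0.13, adjusted p = 0.873). TPPJ, a trehalose-6-phosphate phosphatase, was 2.28-fold higher (adjusted p = 0.00105). PPDK, a pyruvate orthophosphate dikinase, was lower (log2FC −0.66 ± 0.12, adjusted p = 0.0158).

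The list of other hypoxia markers held regulators, hormone enzymes and proteins of unknown function, and it had the highest median of the lists with more than 3 tested genes. Of its 38 tested genes, 19 were higher and 2 were lower (median log2FC 1.80), 12 were called higher without the replicate number, and 15 of the 19 were called in every fit that left out 1 library or 1 replicate number. The study had already named part of this list for these seedlings, so its direction is not independent evidence. HB1 (AT2G16060), a haemoglobin that consumes nitric oxide, stood at 7.6, 4.51 and 7.6 CPM in Col-0 against 129, 60.7 and 39.8 CPM in a1a2 (10.8-fold, log2FC 3.43 ± 0.27, adjusted p = 0.000127). LBD41 (AT3G02550), a LOB-domain transcription factor, stood at 3.15, 3.1 and 2.8 CPM and at 66.3, 32.7 and 20.1 CPM (12.1-fold, log2FC 3.60 ± 0.23, adjusted p = 2.57e-05). The groups did not overlap for either gene, and the Col-0 libraries of LBD41 were nearly equal while the a1a2 libraries spread. HRA1 (AT3G10040), a trihelix protein that restrains ERF-VII activity, was 4.36-fold higher (adjusted p = 0.000784). ACO1 (AT2G19590), which makes ethylene, stood at 6.19, 5.4 and 5.95 CPM and at 42.9, 32 and 28.3 CPM (5.83-fold, log2FC 2.54 ± 0.14, adjusted p = 2.47e-06). ARD3, of the methionine salvage cycle, and CML38, a calmodulin-like protein, were higher in the mean but overlapped between groups and did not pass (log2FC 2.54 ± 0.65 and 1.75 ± 0.48, adjusted p = 0.12 and 0.148).

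**Figure D1:**
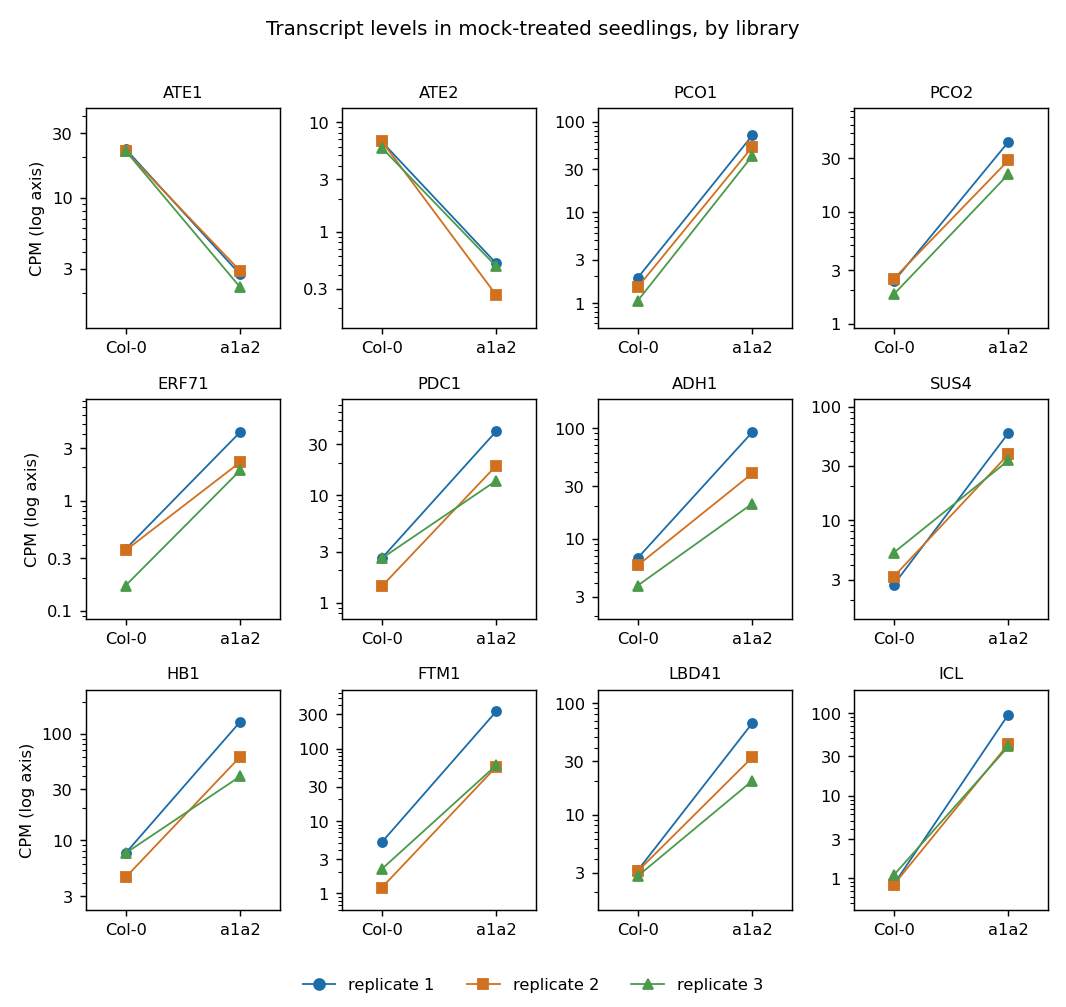
Transcript levels of ATE1, ATE2 and 10 genes that were higher in a1a2 (HRE2 is shown as ERF71), in CPM on a log axis, for mock-treated Col-0 and a1a2. Each point is 1 library and each line joins the 2 libraries of a replicate number. ATE1 and ATE2 fell in each pair, from 22.9 to 2.72 CPM for ATE1 in replicate 1, and the other genes rose in each pair, with replicate 1 of a1a2 the highest library in every one of those 10 panels.

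The largest differences belonged to genes whose products are little known or are known from other pathways. FTM1 (AT1G43800), of the stearoyl-acyl carrier protein desaturase family, stood at 5.1, 1.2 and 2.17 CPM in Col-0 against 330, 56.5 and 59.4 CPM in a1a2 (45.5-fold, log2FC 5.51 ± 0.32, adjusted p = 1.19e-05). AT2G17850, annotated in the rhodanese and cell cycle control phosphatase superfamily, held at most 1 count in any Col-0 library and stood at 23.4, 7.18 and 4.24 CPM in a1a2. AT3G29970, a B12D protein, held no count in Col-0 and stood at 6.59, 2.15 and 1.14 CPM. Against 3 counts per library, a floor that was chosen and not estimated from the data, the 2 genes were at least 91.2-fold and at least 25.9-fold higher (adjusted p = 4.5e-05 and 2.71e-05). AT3G29970 was not called without the replicate number (adjusted p = 0.146). AT1G12805, a nucleotide binding protein that is on no list used here, stood at 0.243, 0 and 0 CPM and at 11.2, 4.07 and 4.55 CPM (log2FC 6.20 ± 0.53, adjusted p = 0.000123). Its log2FC ran from 5.70 to 9.78 when libraries were left out, a wider range than the ± shows. AT3G03270 (adenine nucleotide alpha hydrolase-like), AT4G27450 (an aluminum induced protein) and the uncharacterized AT1G33055 and AT3G06435 were 10.7-, 7.58-, 13.6- and 12.9-fold higher. AT1G19530 stood at 4.37, 0.708 and 0.595 CPM in Col-0 against 55.5, 22.5 and 4.63 CPM in a1a2 (14.9-fold, adjusted p = 0.000129), with a spread within each genotype so wide that it was not called without the replicate number (adjusted p = 0.757). AT4G10270 and AT4G10265, wound-responsive family genes that lie close together, were 18-fold and at least 8.41-fold higher, and AGL44, which is ANR1, a MADS-box factor of root branching under nitrate, was at least 9.69-fold higher. AT4G27450 and AT4G10265 were also not called without the replicate number (adjusted p = 0.2 and 0.0748). The lower DEGs on the marker list were AT3G10020 and AT3G61930 (log2FC −0.72 ± 0.14 and −1.47 ± 0.24, adjusted p = 0.0324 and 0.00985).

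The DEGs were then set against genes that respond to hypoxia itself. A published list of the response of seedlings to 2 h without enough oxygen held 425 tested genes that rose and 232 that fell. Of the 91 higher DEGs, 36 were among the rising genes (39.6%), as were 2.08% of all genes tested, and so were 23 of the 38 DEGs above 4-fold. Of the 425 rising genes, those 36 (8.47%) were higher DEGs, against 0.445% of all genes tested. The median log2FC over all 425 rising genes was −0.01, the same as over all genes tested. Of the 105 lower DEGs, 3 were among the falling genes and 2 among the rising genes, and 1 higher DEG, the sulfate-reducing APR2, was on the falling side.

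The 3 pairs of libraries did not show the hypoxia genes equally. Over the 36 higher DEGs of the rising list, the median log2 difference was 3.13 in replicate 1, 2.28 in replicate 2 and 2.21 in replicate 3, and 26 of the 36 were largest in replicate 1. The other 55 higher DEGs had medians of 0.94, 1.23 and 1.29, and 12 were largest in replicate 1. The summed hypoxia markers were 355, 329 and 292 CPM in Col-0 and 1545, 727 and 562 CPM in a1a2, so that replicate 1 of a1a2 held more than the other 2 a1a2 libraries together. Without replicate 1, 155 of the 196 DEGs were still called among 322.

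**Figure D2:**
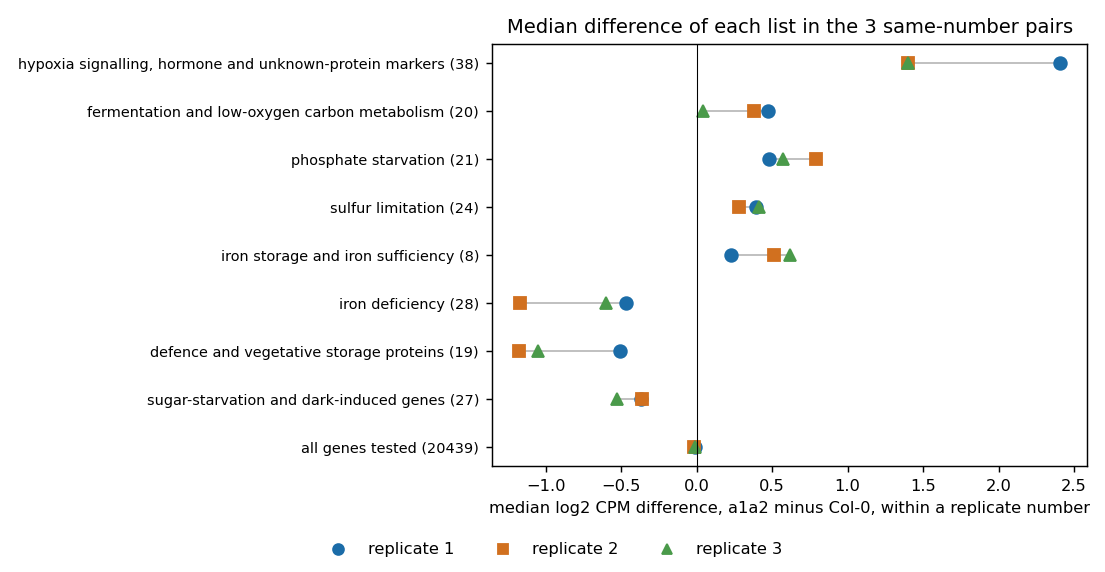
Median log2 difference in CPM, a1a2 minus Col-0, over the tested genes of 8 lists and over all 20439 genes, in each of the 3 same-number pairs of libraries (numbers of genes in brackets). Hypoxia markers lay at 2.41 in replicate 1 and at 1.40 in replicates 2 and 3, iron deficiency genes lay at −0.47, −1.17 and −0.60, and all genes tested lay at −0.02 to −0.01.

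Promoters of the higher genes were searched for the hypoxia-responsive promoter element (HRPE), the sequence that RAP2.2 and RAP2.12 bind in hypoxia genes. The window ran from 250 bases before to 50 bases after the RefSeq gene start (TAIR10.1). Its core, AACCA followed by any 3 bases and GC on either strand, was present in 2.37% of 20438 windows, in 6 of the 91 higher DEGs (6.59%), in 5 of the 38 above 4-fold (13.2%) and in 1 of the 105 lower DEGs (0.952%). In the 250 bases upstream alone, the shares were 1.86% of all genes and 3.3% of the higher DEGs. Among the 38 DEGs above 4-fold, 2 (5.26%) held a core upstream. Of the 36 higher DEGs on the rising hypoxia list, 4 (11.1%) held a core in the window and 1 (2.78%) upstream. Other sites were searched in the same windows, so the HRPE core was not alone in being more frequent. GCCGCC (GCC-box) was present in 2.58% of all windows and 6.59% of the higher DEGs, and upstream alone in 1.92% and 6.59%. CACGTG (G-box) was present in 8.55% and 13.2%, GAGAC in 32.4% and 31.9%, and TTGACC (W-box) in 14.6% and 9.89%. The full HRPE consensus was present in 28 of 20438 windows (0.137%), of which 3 belonged to higher DEGs (AT3G27220, AT4G10265 and PCO1), all within the first 50 transcribed bases. The cores with their surroundings are shown for the higher DEGs that hold them (the first of 2 for AT3G27220), read along the gene, with the core in capitals (for PCO1 it lies on the opposite strand).
PCO1 (chr5:4898640-4898669, plus strand, after the start): caaaagaatgGCCCCTGGTTttgtaatcga
AT4G10265 (chr4:6373634-6373663, minus strand, after the start): aaaccaagaaAACCAGCAGCtacaaaaccc
AT4G10270 (chr4:6374495-6374524, plus strand, upstream): acaatctcaaAACCAGGTGCacatgatagc
AT4G10270 (chr4:6374625-6374654, plus strand, upstream): aaacaaccaaAACCAACGGCcacagcttct
AT3G27220 (chr3:10053732-10053761, minus strand, after the start): caaaattggaAACCACCGGCgtgatttctg
ADH1 (chr1:28975080-28975109, plus strand, upstream): aaccgcccgaAACCAAAAGCattcgatggg
MGD3 (chr2:4743043-4743072, plus strand, upstream): aagattccgaAACCAAAGGCggatccgacg
AT3G27220, a kelch repeat protein of the hypoxia marker list, was 5.12-fold higher (adjusted p = 0.00163). MGD3, which makes galactolipid under phosphate shortage, belongs to the phosphate list and not to the hypoxia genes. Most of the hypoxia genes above 4-fold, LBD41, HB1, SUS4 and PDC1 among them, hold no core in this window.

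Outside the hypoxia genes, ICL gave the largest difference among the DEGs that had counts in every Col-0 library. ICL (AT3G21720), the isocitrate lyase of the glyoxylate cycle, by which seedlings turn stored oil into sugar, stood at 0.849, 0.841 and 1.1 CPM in Col-0 against 96.4, 42.4 and 39.6 CPM in a1a2 (61.2-fold, log2FC 5.94 ± 0.27, adjusted p = 2.07e-06). It was the only DEG among 17 tested genes of the glyoxylate cycle and of oil breakdown, whose median log2FC was −0.04. MLS, the malate synthase that follows it in the cycle, stood at 2.26, 1.64 and 1.44 CPM in Col-0 against 2.17, 2.01 and 1.97 CPM in a1a2 (log2FC 0.21 ± 0.20, adjusted p = 0.752), and PCK1 gave 0.10 ± 0.08 (adjusted p = 0.692). Seed storage genes were near the floor: the 16 in the table summed to 1.42 to 1.83 CPM in Col-0 and 3.2 to 12.5 CPM in a1a2, 1 of them had no count in any mock library, and none of the 3 that could be tested passed. Of those, the cruciferin gene CRA1 stood at 0.162, 0.221 and 0 CPM and at 1.18, 9.85 and 3.67 CPM (adjusted p = 0.138). ICL was highest in replicate 1 of a1a2, where the seed genes had their lowest sum in a1a2 (3.2 CPM), still above every Col-0 library. Whether ICL and the seed genes are linked was not tested. Of 11 genes of abscisic acid metabolism and germination, CYP707A1 and CYP707A3, which break the hormone down, were the DEGs. Unlike ICL, both are among the rising genes of the published hypoxia list. CYP707A3 stood at 4.17, 5.22 and 5.14 CPM and at 9.16, 11.5 and 9.71 CPM (2.09-fold, log2FC 1.06 ± 0.09, adjusted p = 0.000123), and CYP707A1 was also 2.09-fold higher (adjusted p = 0.037) but was called in only 1 of the 9 fits that left out libraries.

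Genes of mineral nutrition moved in both directions, with smaller steps than the hypoxia genes. Iron deficiency genes were the most uniform: 7 of 28 were lower, none was higher, the median log2FC was −0.77, and all 28 lay lower in a1a2 in each of the 3 pairs, as did 20.2% of all genes tested. Levels differed several-fold between replicates, and none of the 7 was called without the replicate number. IRT1 (AT4G19690), the iron transporter of the root surface, stood at 132, 316 and 354 CPM in Col-0 against 58.9, 115 and 221 CPM in a1a2 (log2FC −1.10 ± 0.22, adjusted p = 0.0482). Replicate 1 of Col-0 was lower than replicate 3 of a1a2, and IRT1 was not called in any of the 9 fits that left out a library or a replicate number. BHLH100 (AT2G41240), a transcription factor that turns on IRT1, stood at 7.68, 29.6 and 29.4 CPM and at 2.13, 5.04 and 10.7 CPM (log2FC −1.95 ± 0.24, adjusted p = 0.00296), with the groups overlapping in the same way, and it was called in all 9. Its relatives bHLH38 and BHLH101 were lower (log2FC −1.48 ± 0.24 and −1.63 ± 0.28, adjusted p = 0.0158 and 0.0161), whereas bHLH39 gave −1.10 ± 0.26 and did not pass (adjusted p = 0.0891). NAS2, which makes the iron chelator nicotianamine, stood at 3.36, 3.05 and 3.53 CPM and at 0.829, 0.131 and 1.27 CPM, with no overlap (log2FC −2.18 ± 0.40, adjusted p = 0.0254). The factors MYB72 and MYB10, which act on NAS genes, were lower as well (log2FC −2.49 ± 0.51 and −1.44 ± 0.28, adjusted p = 0.0451 and 0.036). The ferric reductase FRO2 and the regulator FIT gave −0.75 ± 0.26 and −0.58 ± 0.22 and did not pass (adjusted p = 0.262 and 0.311).

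On the side of iron sufficiency, 1 of 8 genes was a DEG (median log2FC 0.42). NEET (AT5G51720), an iron-sulfur cluster protein, stood at 10.9, 12.7 and 9.56 CPM in Col-0 against 19.7, 30 and 22.3 CPM in a1a2, with no overlap (log2FC 1.10 ± 0.14, adjusted p = 0.00229). The ferritin FER1 overlapped between groups and did not pass (log2FC 0.80 ± 0.21, adjusted p = 0.14). Of 12 genes of zinc and metal transport, NAS3 and ZIP3 were higher (log2FC 1.01 ± 0.20 and 0.71 ± 0.14, adjusted p = 0.0387 and 0.0364), opposite in direction to NAS2. NAS3 overlapped between groups. NEET, NAS3 and ZIP3 were not called without the replicate number (adjusted p = 0.269, 0.677 and 0.904), and they were called in 8, 4 and 2 of the 9 fits that left out libraries.

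The 4 bHLH factors of the iron response also begin with Met and Cys, as a search of all coding starts showed. Here a gene was counted if any of its RefSeq coding sequences had Cys as its second codon. A Cys codon in second place occurred in 210 of 20439 tested genes (1.03%), in 3 of the 91 higher DEGs (3.3%) and in 4 of the 105 lower DEGs (3.81%). The 3 higher genes are HRE2, AT4G24110 of the hypoxia markers and AT1G29090, and the 4 lower genes are bHLH38, BHLH100, BHLH101 and ASN1, the asparagine synthetase described below. Their coding sequences, picked as for the listed substrates, begin as follows, with the second codon in capitals, and bHLH39 is shown for comparison.
bHLH38 (chr3:21085065-21085094, minus strand): atgTGTgcattagtcccttcatttttcaca
bHLH39 (chr3:21087465-21087494, minus strand): atgTGTgcattagtacctccattgtttcca
BHLH100 (chr2:17199291-17199320, minus strand): atgTGTgcacttgtccctccattatatccc
BHLH101 (chr5:1139507-1139536, minus strand): atgTGTaccttaacgccaatgtttccaagt
ASN1 (chr3:17441014-17441043, minus strand): atgTGTggaatacttgccgtgttaggatgt
AT4G24110 (chr4:12520733-12520762, minus strand): atgTGTaggtcgcccgatttcgagcgttat
AT1G29090 (chr1:10164356-10164385, minus strand): atgTGTgattctttcatcaataacaaaatg
Whether these proteins are arginylated was not measured here. The search was made after the levels had been seen. bHLH38, BHLH100 and BHLH101 are relatives with similar starts, so they are not independent cases in the share of lower DEGs.

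Of 21 tested phosphate starvation genes, 7 were higher, none was lower and 14 did not pass (median log2FC 0.57). None was called without the replicate number or in all 9 fits that left out libraries. IPS1 (AT3G09922), a non-coding RNA that sequesters miR399 when phosphate is short, stood at 0.404, 0.266 and 0.425 CPM in Col-0 against 1.5, 6.52 and 4.5 CPM in a1a2 (10.4-fold, log2FC 3.38 ± 0.46, adjusted p = 0.00383). PAP17 (AT3G17790), an acid phosphatase, stood at 22.8, 31.1 and 24.4 CPM and at 42.6, 72.8 and 60.2 CPM (2.2-fold, log2FC 1.14 ± 0.13, adjusted p = 0.00119). All 3 a1a2 libraries lay above all Col-0 libraries for both, with replicate 1 of a1a2 the lowest, the reverse of the hypoxia genes. The remaining DEGs act in lipid remodelling and in the release of phosphate from lipid head groups. These were PECP1 (PEPC1 in the annotation), a head-group phosphatase, the galactolipid synthases MGD3 (MGDC) and MGD2, the glycerophosphodiester phosphodiesterase GDPD1 (SRG3) and the sulfolipid enzyme SQD1, with log2FC 2.03, 1.39, 0.81, 1.00 and 0.75 (adjusted p = 0.0204, 0.00747, 0.0361, 0.00586 and 0.00623). The phosphatase gene PS2 did not pass (log2FC 1.37 ± 0.29, adjusted p = 0.0543).

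The phosphate genes were searched for P1BS, the site of the phosphate starvation factor PHR1, here spelled GNATATNC on either strand. It was present in 6.16% of 20438 windows and in 3 of the 7 higher phosphate genes (42.9%), and in the upstream part alone in 5.41% of all genes and 2 of the 7 (28.6%). Over all 91 higher DEGs the share with P1BS was 8.79%. GAGAC was also present in 3 of the 7 higher phosphate genes (42.9%), against 32.4% of all windows. A match says only that these letters are in the window. The matches in the 3 genes are shown with the site in capitals.
GDPD1 (chr3:350119-350148, minus strand, upstream): gagaggggaggGAATATCCaaaagggataa
GDPD1 (chr3:350055-350084, minus strand, upstream): ggcgatccaaaGAATATTCcaagatcccat
MGD2 (chr5:6896438-6896467, plus strand, upstream): tatatactactGAATATTCttttgttaata
MGD2 (chr5:6896483-6896512, plus strand, after the start): tacttttcgaggaccttGAATATTCgaatc
SQD1 (chr4:15935376-15935405, plus strand, after the start): ggaataagtaaGAATATGCtttgggcatat

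Of 24 sulfur limitation genes, 7 were higher and 1 was lower (median log2FC 0.43), none of them called without the replicate number or in all 9 fits that left out libraries. BGLU28 (AT2G44460), a beta-glucosidase that breaks down glucosinolates when sulfur is short, stood at 0.728, 1.2 and 1.19 CPM in Col-0 against 3.51, 5.82 and 7.3 CPM in a1a2 (5.32-fold, log2FC 2.41 ± 0.35, adjusted p = 0.00621). SDI1, a repressor of glucosinolate synthesis, the glutathione-degrading enzyme GGCT2;1, LSU3 and the serine acetyltransferase SERAT3;2 were 3.01-, 2.4-, 2.13- and 2.06-fold higher (adjusted p = 0.0158, 0.043, 0.0248 and 0.0328). SULTR4;2, which releases sulfate from the vacuole, and APR2, which reduces activated sulfate, were 1.55- and 1.52-fold higher (adjusted p = 0.0158 and 0.00427). APS4 (AT5G43780), an ATP sulfurylase, went the other way, from 105, 111 and 116 CPM in Col-0 to 66.7, 57.2 and 51.1 CPM in a1a2 (log2FC −0.94 ± 0.11, adjusted p = 0.00129). Col-0 and a1a2 did not overlap for BGLU28, APR2 or APS4. The sulfate transporter SULTR2;1 lay lower in each a1a2 library and did not pass (log2FC −0.62 ± 0.18, adjusted p = 0.182), and APR3 gave 0.48 ± 0.11 (adjusted p = 0.0752).

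A list of genes that rise in darkness and when sugar is short was written after the results had been seen, from DEGs and textbook members together, so the counts only describe it. Of 27 tested genes, 9 were lower, none was higher and 18 did not pass (median log2FC −0.50), 24 were lower in all 3 pairs, and none was called without the replicate number. ASN1 (AT3G47340), the dark-induced asparagine synthetase, stood at 26.6, 19.5 and 6.92 CPM in Col-0 against 7.18, 2.45 and 0.918 CPM in a1a2 (log2FC −2.60 ± 0.33, adjusted p = 0.00373). DRM2 (AT2G33830), of the dormancy/auxin associated family, stood at 212, 124 and 12.7 CPM and at 103, 34.2 and 2.89 CPM (log2FC −1.61 ± 0.21, adjusted p = 0.00427). BCAT-2 (AT1G10070), a branched-chain aminotransferase, stood at 23.5, 15.7 and 1.66 CPM and at 5.88, 3.33 and 0.568 CPM (log2FC −2.07 ± 0.26, adjusted p = 0.00275). In each of the 3 genes replicate 3 of Col-0 lay below replicate 1 of a1a2, so the groups overlapped, while within a replicate number a1a2 was always lower. SEN1, a senescence-associated gene, and THA1, a threonine aldolase, were lower by the same test (log2FC −2.47 ± 0.39 and −2.78 ± 0.40, adjusted p = 0.0124 and 0.00719), and SEN1 was called in only 3 of the 9 fits that left out libraries. AT3G15450, AT1G21400, DYL1 and the sugar transporter STP1 gave log2FC −1.14, −0.90, −0.68 and −0.63. LHY (AT1G01060), a morning gene of the clock and the only DEG of 11 clock genes, stood at 17.3, 23.6 and 155 CPM and at 23.1, 34.2 and 266 CPM (log2FC 0.59 ± 0.09, adjusted p = 0.00864). The groups overlapped for LHY, and it lay only just above the 1.5-fold threshold. It was not called without the replicate number and was called in 4 of the 9 fits that left out libraries. PRR5, another gene of the clock, stood at 48.1, 55 and 5.01 CPM and at 42.2, 27.4 and 3.37 CPM and did not pass (adjusted p = 0.286), and the part of the clock in the dark-induced genes was not tested.

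**Figure D3:**
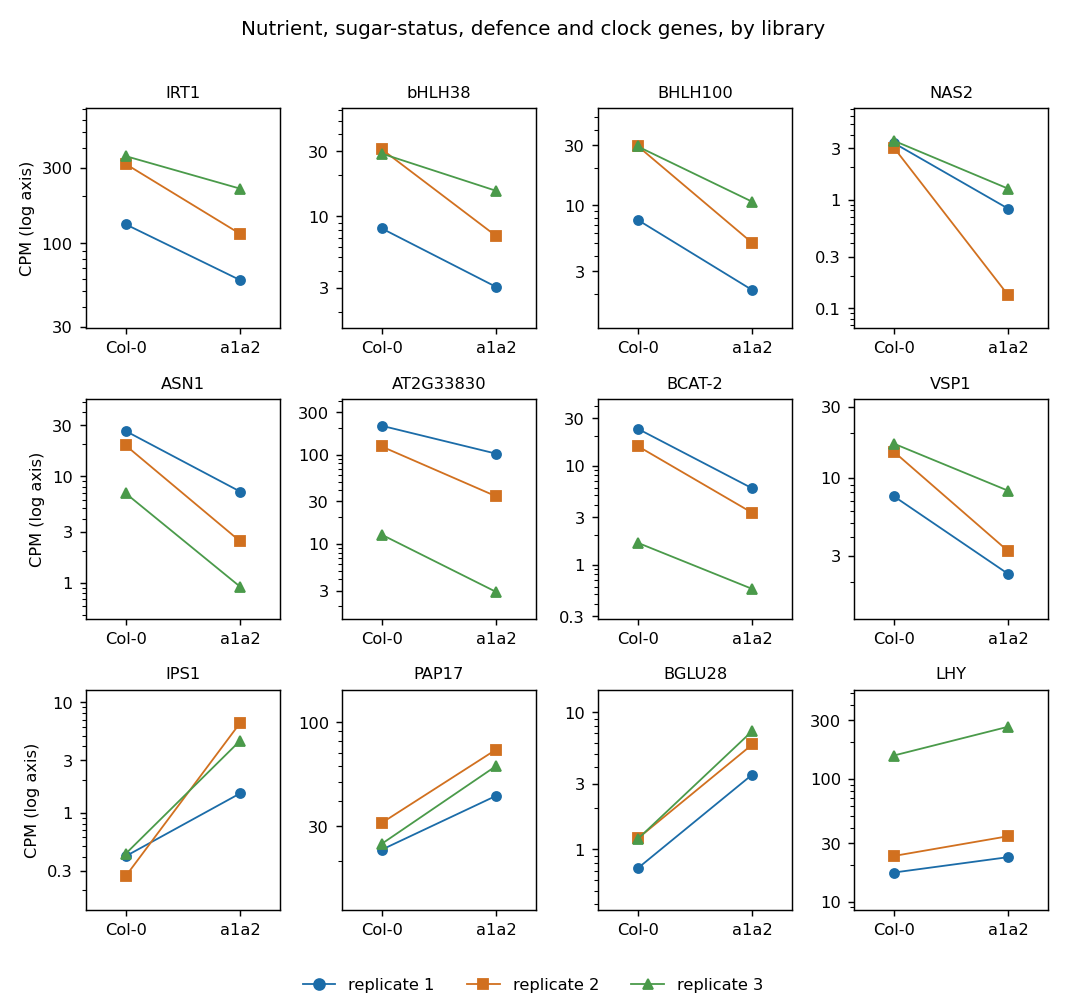
Transcript levels of 12 genes of iron, phosphate and sulfur supply, sugar status, defence and the clock, in CPM on a log axis, for mock-treated Col-0 and a1a2. Each point is 1 library and each line joins the libraries of a replicate number. The lines run in the same direction within a panel, downwards for IRT1 to VSP1 and upwards for IPS1, PAP17, BGLU28 and LHY, while replicate 3 of both genotypes lies below the other replicates for ASN1, AT2G33830 (DRM2) and BCAT-2 and above them for LHY (155 CPM in Col-0 and 266 CPM in a1a2).

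Of 19 tested genes for defence and vegetative storage proteins, 8 were lower, none was higher and 11 did not pass (median log2FC −1.06), and 1, DR4, was also called without the replicate number. VSP1 (AT5G24780), a vegetative storage protein induced by jasmonate, stood at 7.52, 15 and 17 CPM in Col-0 against 2.25, 3.2 and 8.18 CPM in a1a2 (log2FC −1.62 ± 0.18, adjusted p = 0.000974), and replicate 1 of Col-0 lay below replicate 3 of a1a2. DR4 (AT1G73330), a protease inhibitor, stood at 205, 328 and 240 CPM and at 78.8, 121 and 108 CPM, with no overlap (2.5-fold lower, log2FC −1.32 ± 0.17, adjusted p = 0.00343). DOX1, an alpha-dioxygenase that oxidises fatty acids, stood at 87.8, 191 and 209 CPM and at 72.6, 60.2 and 62.8 CPM (log2FC −1.27 ± 0.25, adjusted p = 0.038). The defensin gene PDF2.1, the germin-like GLP4, WRKY31, the chitinase CHIA and VSP2 gave log2FC −1.99, −1.46, −1.22, −1.09 and −0.69 (adjusted p = 0.00427, 0.0264, 0.00343, 0.0178 and 0.0147). Markers of pattern-triggered immunity held no DEG among 19 (median log2FC −0.18). FLS2, the receptor of flg22, gave −0.13 ± 0.15 and WRKY33 gave −0.48 ± 0.16 (adjusted p = 0.806 and 0.219).

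None of 15 aliphatic glucosinolate genes was a DEG (median log2FC −0.23), although the fitted value was below 0 for all 15 and 11 were below 0 in all 3 pairs, as were 20.2% of all genes tested. Of 16 indolic glucosinolate genes, 2 were lower (median −0.25). These were CYP81F4 and IGMT5, which make methoxylated indole glucosinolates (log2FC −0.80 ± 0.13 and −0.79 ± 0.11, adjusted p = 0.0116 and 0.00398). Of 9 myrosinase genes, TGG2 was lower, at 368, 501 and 519 CPM in Col-0 against 240, 244 and 295 CPM in a1a2 (log2FC −0.83 ± 0.13, adjusted p = 0.00868), whereas TGG1 did not pass (log2FC −0.25 ± 0.10, adjusted p = 0.326). None of these 3 genes was called without the replicate number.

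**Figure D4:**
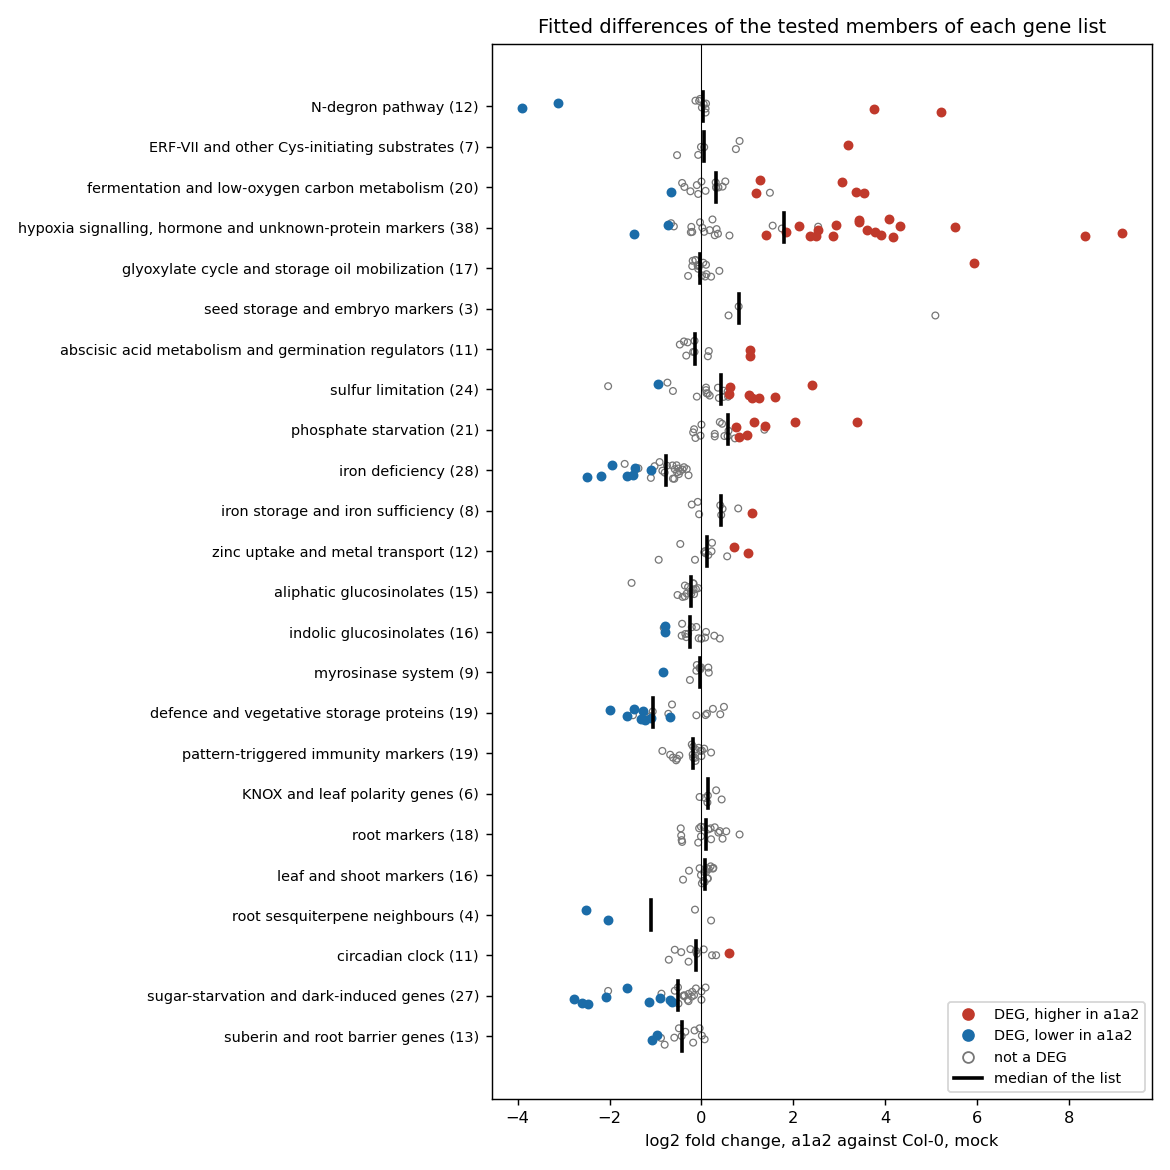
Fitted log2 fold change of every tested gene in 24 gene lists, a1a2 against Col-0 in mock. Filled points are DEGs (red higher, blue lower), open points are other tested genes, bars are list medians and the number of tested genes stands in brackets. Hypoxia markers have the median farthest to the right (1.80) and the medians of the iron deficiency, defence and dark-induced lists lie to the left of 0, while the root, leaf and glyoxylate lists are centred near 0.

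The remaining lower genes with the largest differences belonged to no common list. GolS1 (AT2G47180), which makes galactinol for raffinose sugars, stood at 12.7, 18.1 and 20 CPM in Col-0 against 4.3, 4.82 and 5.73 CPM in a1a2 (3.4-fold lower, log2FC −1.77 ± 0.14, adjusted p = 3.82e-05). AT5G24240, a phosphatidylinositol 4-kinase gamma-like gene, stood at 4.81, 6.33 and 6.97 CPM and at 0.592, 1.27 and 0.7 CPM (7.2-fold lower, log2FC −2.85 ± 0.36, adjusted p = 0.00343). AT4G11320, a papain-family protease, stood at 238, 287 and 222 CPM and at 69.4, 82.1 and 81.9 CPM (3.21-fold lower, log2FC −1.68 ± 0.19, adjusted p = 0.00202). The groups were well apart for each, and with ATE1, ATE2 and DR4 these are the 6 lower genes that were also called without the replicate number. CYP71A19 (AT4G13290) and TPS12 (AT4G13280), which lie close together and act in the same terpene pathway of the root, were the 2 lower genes of a list of 4 around that locus (median log2FC −1.09). CYP71A19 stood at 4.61, 5.18 and 8.88 CPM and at 1.26, 1.27 and 1.92 CPM (log2FC −2.04 ± 0.19, adjusted p = 0.00019), and TPS12 gave −2.52 ± 0.49 (adjusted p = 0.0314). AT4G14060, a polyketide cyclase and lipid transport protein, AT4G04990 and the glyoxalase GLYI7 gave log2FC −2.91, −2.28 and −1.99 (adjusted p = 0.0117, 0.00343 and 0.0132). FAR1 and FAR4, fatty acyl reductases of suberin, were the 2 lower genes among 13 of a suberin list that was also added after the results had been seen (median log2FC −0.43).

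The genotype difference was then compared between mock and flg22. The mock and flg22 libraries are separate, but they share replicate numbers, and the DEGs were called in a fit that held both. The shared signs are therefore not an independent check. Of the 91 higher DEGs, 90 had the same sign after flg22, and all 105 lower DEGs did, as did 69.3% of all genes tested. The test of the change in the genotype difference called none of the 20439 genes at an adjusted p under 0.05 (0%), with 431 (2.11%) at an unadjusted p under 0.05. The smallest unadjusted p-values among the DEGs belonged to hypoxia genes whose CPM were also higher after flg22 in Col-0. AT4G24110 stood at 2.31, 1.2 and 0.68 CPM in mock-treated Col-0 and at 63.8, 48.3 and 41.3 CPM after flg22, and in a1a2 it went from 19.4, 8.28 and 4.46 CPM to 94.7, 80.1 and 63.3 CPM. LBD41 went to 42.8, 30.7 and 15.3 CPM in Col-0 and to 172, 133 and 78.3 CPM in a1a2. Their genotype differences after flg22 were smaller than in mock (change in log2FC −2.23 ± 0.40 and −1.45 ± 0.30, unadjusted p = 0.000199 and 0.000539, adjusted p = 1). PCO1, ADH1 and ICL did not pass this test either (unadjusted p = 0.0708, 0.672 and 0.0652).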

How the data were processed

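RNA-seq libraries were made from whole seedlings and sequenced as paired ends. The authors deposited expected counts per gene, not scaled to depth, and columns of group averages that were not used here. Their notes name HISAT and TAIR10, and DESeq2 for their own comparisons, while the counting tool and its use of strand are not given in the sources used here. In the mock libraries 7.45% of entries were fractional, so reads had been divided, and near-identical or overlapping genes are uncertain: 18 of the 91 higher and 38 of the 105 lower DEGs overlap another gene model (among the named genes, ATE2, ADH1, AT4G10270, AT4G27450, AT1G33055, AT3G06435, bHLH38, BHLH101, MYB72, MYB10, PAP17, SRG3, APR2, APS4, SULTR4;2, SERAT3;2, ASN1, BCAT-2, THA1, GolS1, AT5G24240, CYP71A19, TPS12 and GLYI7).

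Expected counts were rounded. Genes were filtered with filterByExpr, which left 20439 of 23739 genes and 99.97% of the counts, and scaled by TMM factors. Quasi-likelihood F-tests with robust dispersions (edgeR 4.0.16, R 4.3.3) were two-sided, on all 12 libraries, with 4 group means and the replicate number (6 residual degrees of freedom), and p-values were adjusted by Benjamini-Hochberg over all tested genes. Each ± is the size of the log2FC divided by the square root of its F value. It rests on the dispersion of all 12 libraries and can understate the uncertainty of genes near 0 counts. CPM are TMM-scaled, and differences within pairs used a prior count of 2. Replicate numbers come from the sample titles. Libraries that share a number deviated together in all 18 pairs of groups (correlations of deviations 0.218 to 0.660, for the mock pairs 0.607, 0.351 and 0.63). Counting error limits low values, and a fold against a group with at most 3 counts in each library is a lower bound against 3 counts.

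Named genes were ATE1 and ATE2, the 12 DEGs with the largest change in each direction among those that averaged 1 CPM or more in the mock libraries and did not overlap between groups, DEGs of the gene lists, and up to 4 further members per list or members central to it. AT3G27220, AT4G10265, AT4G24110, AT1G29090, AGL44 and the genes followed in flg22 were partly chosen after their values were seen. The 24 lists were written from general knowledge, 2 of them (dark-induced and suberin) after the results, as were the search for the full HRPE and for second Cys codons. Members and lists were chosen with earlier results of these data known. Gene names and directions of the 2 h hypoxia list came from a published experiment listed in the study's supplement. Gene names, promoters and coding starts are from the RefSeq annotation of TAIR10.1, to which all 23739 genes matched. The fit was tested on simulated data. Alternatives were other scalings, no filter, no replicate number, 6 libraries, DESeq2 1.42.0, a test against 1.5-fold, no fold threshold and leaving out libraries. Genes of the lists that have no row in the table were not analysed here.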

Additional observations from a re-analysis of the deposited data

How the results depend on the processing

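The number of DEGs depended on the replicate block and on single libraries more than on scaling. The block gave 196 DEGs, 91 higher and 105 lower. Without it, edgeR called 34 (28 and 6), DESeq2 called 103 (60 and 43) and edgeR on the 6 mock libraries alone, a setting chosen after seeing the data, called 12 (9 and 3). With the block, DESeq2 called 315 (108 and 207) and edgeR on the 6 mock libraries called 308 (105 and 203), which held 195 and 181 of the 196. A test against 1.5-fold itself called 59 (42 and 17). Size factors by the median of ratios gave 196, library size alone 204, no filter 192 and no fold threshold 220. Leaving out 1 library or 1 replicate number gave 65 to 376 DEGs, 40 to 102 higher and 25 to 275 lower. Of the 196, 171 were called without replicate 1 of Col-0 (376 in all), 88 without replicate 2 of Col-0 (89), 155 without replicate number 1, 60 without number 2 and 76 without number 3, and 72 in each of the 6 fits that left out 1 library. Across these settings, ATE1 ranged from −3.21 to −2.99 and ATE2 from −4.12 to −3.58 and both passed in every one. Among 119 named genes, a call was lost by 86 in the 6 mock libraries without the block, 67 in all libraries without the block, 47 in the test against 1.5-fold, 33 in DESeq2 without the block, 9 in the 6 mock libraries with the block, 5 with library size alone, 4 with no filter, and none with size factors by the median of ratios or with DESeq2 and the block. The 119 include genes that were never DEGs and had no call to lose, so the losses are larger as a share of the named DEGs. No named gene that was a DEG changed direction. Signs changed only for genes near 0 that never passed, when libraries were left out: BIG ranged from −0.02 to 0.20, RAP2.2 from −0.11 to 0.05, FLS2 from −0.31 to 0.08 and PDC2 from −0.10 to 0.20. Library size alone moved the median of all genes from −0.009 to −0.035.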
